A study of Mus musculus with 7 samples.

Results

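Signalling through the adrenergic receptors was followed in mouse myocardium by 9 genes, chosen by symbol: the beta receptors Adrb1 and Adrb3, the alpha1 receptors Adra1a, Adra1b and Adra1d, the receptor kinase Grk5, the adenylyl cyclases Adcy5 and Adcy6 and the phosphodiesterase Pde3a. All 9 were among the 56980 genes of the deposited table. RNA came from the myocardial tissues of 7 wild-type male mice of the inbred C57BL/6J strain, obtained when 8 weeks old. In 3 of them the left coronary artery had been ligated and tissue was taken 4 days later (MI mice), and the other 4 had surgery without the ligation (sham-operated mice). Each mouse gave 1 library. The study calls the tissue of the MI mice ischemic, and how much infarcted, bordering and remote muscle each library held is not given in the sources used here.

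Adrenaline and noradrenaline act on the heart through G protein-coupled receptors. Beta receptors couple to the stimulatory G protein and switch on adenylyl cyclase, which makes cyclic AMP, the signal that raises the rate and force of the beat through protein kinase A. Alpha1 receptors couple to Gq and phospholipase C. Receptor kinases and arrestins shut occupied receptors off, and phosphodiesterases break cyclic AMP down. In the failing heart, loss of beta1 receptors and higher receptor kinase activity are well known.

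To show the sequence before the genes' start sites, the 250 bases upstream of RefSeq transcript starts (GRCm38.p6) are printed for Adrb1 and Adra1b, which were lower in every MI mouse, and for Grk5, which was higher. RefSeq windows were found for 4 of the 9 genes, Adcy5 being the one not printed. Sequences run 5′ to 3′ on the gene's strand and end at the base before the start site. Capitals mark matches on either strand to TGACG (the core of a cyclic AMP response element), to the GC box GGGCGG, to CCAAT, to the TATA box TATAAA, to the E-box CACGTG, to the GATA motif AGATAA or to the M-CAT motif CATTCC. The full element TGACGTCA, which contains TGACG, was searched as well.
Adrb1, chr19:56721867-56722116, plus strand: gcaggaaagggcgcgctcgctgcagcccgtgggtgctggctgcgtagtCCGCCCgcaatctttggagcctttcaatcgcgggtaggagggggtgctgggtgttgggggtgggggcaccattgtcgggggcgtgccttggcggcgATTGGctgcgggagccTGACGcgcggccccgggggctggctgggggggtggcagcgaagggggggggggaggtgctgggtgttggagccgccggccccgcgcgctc
Adra1b, first start, chr11:43901238-43901487, minus strand: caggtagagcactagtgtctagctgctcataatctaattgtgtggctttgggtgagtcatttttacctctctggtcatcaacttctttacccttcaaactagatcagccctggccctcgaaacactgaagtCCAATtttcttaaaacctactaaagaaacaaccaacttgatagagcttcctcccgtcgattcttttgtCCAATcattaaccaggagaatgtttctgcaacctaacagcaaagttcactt
Adra1b, second start, chr11:43836490-43836739, minus strand: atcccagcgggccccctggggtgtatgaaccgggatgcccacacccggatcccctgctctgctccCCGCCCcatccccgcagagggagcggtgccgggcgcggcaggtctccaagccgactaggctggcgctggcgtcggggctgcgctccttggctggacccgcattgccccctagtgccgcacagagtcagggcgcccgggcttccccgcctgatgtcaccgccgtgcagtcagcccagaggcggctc
Grk5, chr19:60889499-60889748, plus strand: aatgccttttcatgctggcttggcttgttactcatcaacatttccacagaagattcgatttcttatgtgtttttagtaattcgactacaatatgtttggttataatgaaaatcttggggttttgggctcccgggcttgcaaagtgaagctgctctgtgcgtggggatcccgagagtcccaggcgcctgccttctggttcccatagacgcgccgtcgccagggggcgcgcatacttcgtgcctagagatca
The Adrb1 window held TGACG 90 bases before the start, CCAAT on the other strand at 106 and a GC box on the other strand at 202. TGACG was found in 17.8% of the 32851 windows of the table, GGGCGG in 32.7% and CCAAT in 33.8%. The full TGACGTCA, in 1.55% of windows, was in 0 of the windows printed. The starts of Adra1b differed: the first window had 41.6% G and C and 2 CCAAT matches, and the second 72.8% and 1 GC box. The Grk5 window, with 49.6% G and C, held none of these letters. Median G and C content over all windows was 52.4%, and that of Adrb1 was 74.0%. These are matches of letters only.

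Values were FPKM, fragments per kilobase of gene and scaled to the fragments of the library. The gene lengths behind them, recovered from their steps, were 1.00 to 2.05 times the GENCODE exon lengths of the 9 genes, so the order of levels between genes depends on the lengths used. Depths were 19977713 to 23610870 fragments, and FPKM summed to 463838 to 476593 in the sham-operated mice and to 378221, 475030 and 386335 in MI replicates 1 to 3. Mitochondrial genes held 26.5% to 27.4% of the fragments in the sham-operated mice, and 13.6, 28.2 and 14.96% in MI replicates 1 to 3. MI replicate 2 stood close to the sham-operated mice. Across the tested genes, which are not independent replicates, its Pearson's r with them was 0.984 to 0.987, where the other MI mice had 0.878 to 0.906. Log2 fold changes of single tested genes, and log2 ratios within a mouse to the markers' mean or to another gene, are therefore given with and without MI replicate 2. That mouse was singled out by its likeness to sham, so leaving it out favours larger differences and smaller p. Only MI replicates 1 and 3 then remain in the MI group, and values without MI replicate 2 are descriptions that add no support. The muscle's identity was clear in all mice from 19 cardiomyocyte markers, summing to 20092 to 21501 FPKM in sham-operated mice and to 13397, 19859 and 15058 FPKM in MI replicates 1 to 3.

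The fit compared MI with sham on log2(FPKM + 1), which understates the change of low genes. It covered 11431 genes that reached 1 FPKM in 3 or more mice, with limma's moderated test and Benjamini-Hochberg adjustment over all of them. Up to 18 alternatives, which changed the pseudocount, filter, scaling, model or mice, were run beside it. For each adrenergic gene tested, except Adcy6, the lowest adjusted p among them came from sample weights. These weights were 436.7 for MI replicate 3 against 0.0906 and 0.0217 for MI replicates 1 and 2. Such a p rests on MI replicate 3 almost alone in the MI group and adds no support. The median gene was 0.21 higher in MI mice on the log2 scale, and 0.33 higher once MI replicate 2 was dropped, so a log2 fold change of 0 lies below the median gene. Relative to the median gene, the members ran from -0.85 (Adra1b) to 0.63 (Grk5). Of the 9 adrenergic genes 8 passed the filter, all but Adrb3, and their median log2 fold change was -0.28. At an adjusted p under 0.05, limma called 0 of the 8, where it called 3 of all 11431 genes (0.0262%). At an unadjusted p under 0.05, Grk5 was higher and Adrb1, Adra1b and Adra1d were lower, against 29.5% of all genes higher and 9.85% lower. That split depends on the scaling of the mice: 3370 genes were higher and 1126 lower with FPKM as deposited, 4142 and 560 with TPM, and 2171 and 2238 with median log-ratio scaling, where the members were 1 higher and 3 lower, 1 and 2, and 1 and 4. Those 4 were also the genes whose groups did not overlap, 1 above and 3 below, where 16.1% of all genes had the whole MI group above the sham group and 9.0% had it below. Once MI replicate 2 was dropped, limma called 1 member higher (Grk5) and 5 lower (Adrb1, Adra1a, Adra1b, Adra1d and Pde3a) with an adjusted p under 0.05, where 57.0% of all genes were called higher and 14.7% lower.

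**Figure D1:**
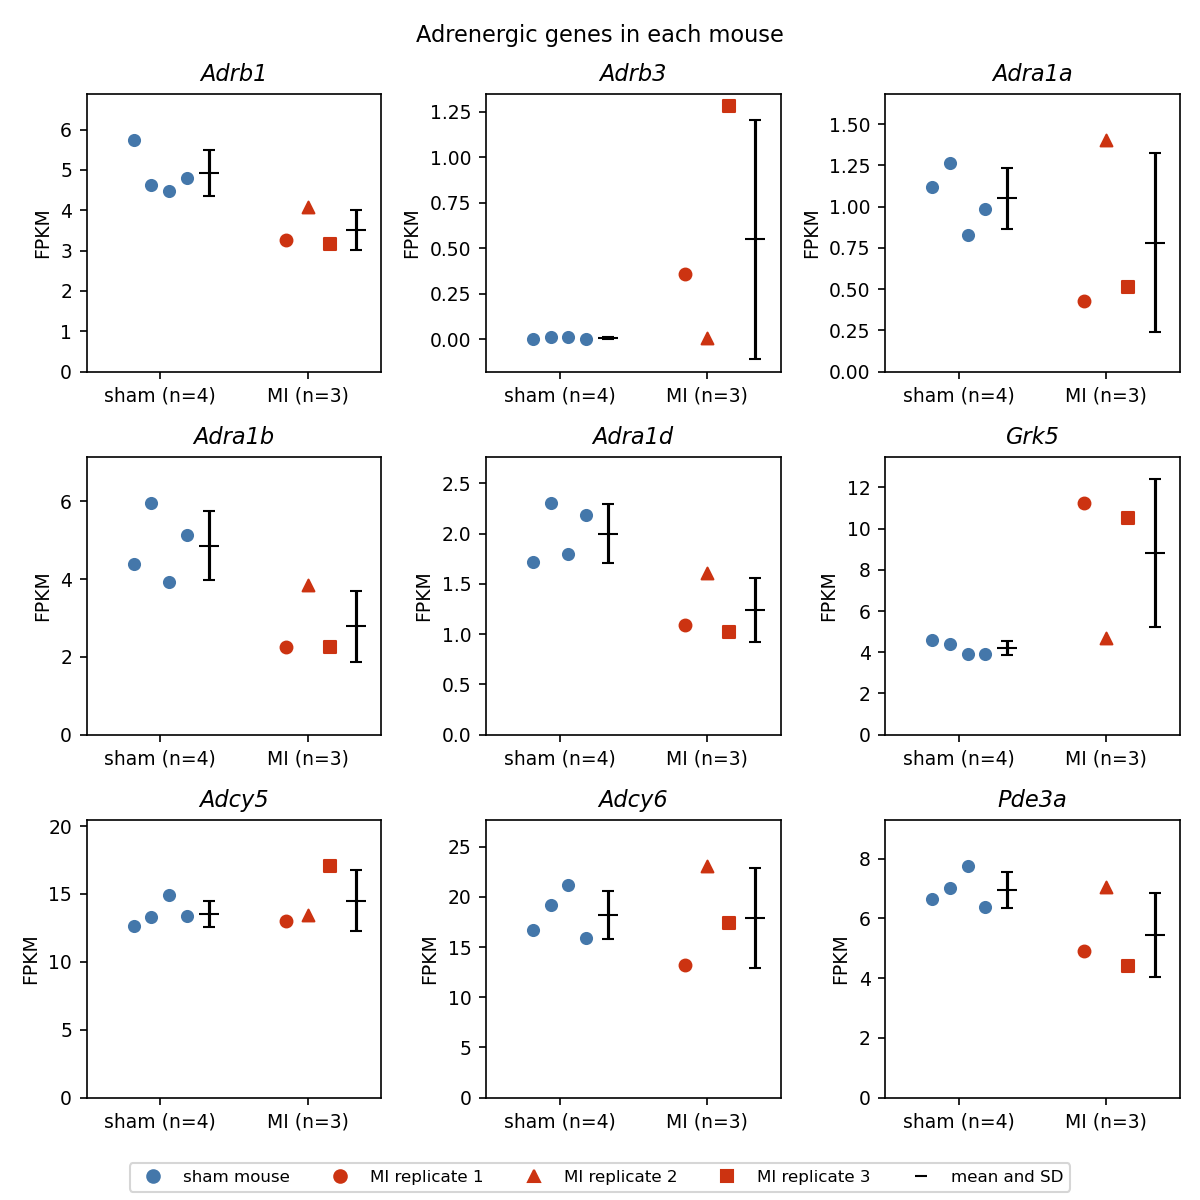
FPKM (vertical axes, each panel with its own scale) of the 9 adrenergic genes in 4 sham-operated mice (blue) and 3 MI mice (red, a symbol for each replicate), with the mean and SD of each group in black. The MI mice lie below the sham-operated mice for Adrb1, Adra1b and Adra1d and above for Grk5, and MI replicate 2 (triangle) is the MI mouse nearest to the sham-operated mice for these 4 genes.

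Among the beta receptors, Adrb1 encodes the beta1 receptor, the main beta receptor of cardiomyocytes (ENSMUSG00000035283, chromosome 19, 56722199 to 56733113, plus strand, GRCm38). It stood at 5.74, 4.63, 4.49 and 4.81 FPKM in sham replicates 1 to 4 and at 3.26, 4.08 and 3.17 FPKM in MI replicates 1 to 3. All 3 MI mice were below all 4 sham-operated mice. These levels came from 331 to 444 fragments in the sham group and 245 to 318 in the MI group. Means were 4.92 ± 0.567 FPKM (SD, n = 4) in sham and 3.50 ± 0.498 FPKM (SD, n = 3) in MI mice. The fit gave Adrb1 a log2 fold change of -0.39 (standard error 0.117, limma adjusted p 0.108). Dropping MI replicate 2 gave -0.48 with a limma adjusted p of 0.00270, and over 18 alternatives the limma adjusted p ran from 1.27e-05 to 0.335. In tissue RNA, fewer cells of a type and less RNA per cell cannot be told apart.

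Cardiomyocyte markers moved with Adrb1. Their median log2 fold change over 19 genes was -0.42, and 5 of the 19 had the MI group wholly below the sham group, 1 (Des) wholly above, where 9.0% and 16.1% of all genes did. Relative to the mean log2 level of those markers in the same mouse, the mean of Adrb1 differed by -0.10, or by -0.055 without MI replicate 2. Leaving out other single mice gave -0.030 (sham replicate 1) to -0.20 (MI replicate 1). These log2 ratios were -6.41 to -6.08 in sham-operated mice and -6.20, -6.48 and -6.49 in MI replicates 1 to 3, and the groups overlapped (exact two-sided permutation p = 0.457). With 3 and 4 mice such a p cannot fall under 0.0571. Taken against the median of the markers in place of their mean, the difference was -0.27 (exact two-sided permutation p = 0.171).

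Adrb3 encodes the beta3 receptor, best known from adipocytes, where it drives the breakdown of stored fat (ENSMUSG00000031489, chromosome 8, 27225776 to 27250616, minus strand). It was near 0 in every sham-operated mouse, at 0, 0.0131, 0.0121 and 0 FPKM from 0, 2, 2 and 0 fragments. In MI replicates 1, 2 and 3 it stood at 0.358, 0.00627 and 1.28 FPKM, from 54, 1 and 209 fragments. MI replicates 1 and 3 were above the sham-operated mice and MI replicate 2 was among them (exact two-sided permutation p = 0.171). The gene missed the filter, and a limma fit without it gave a log2 fold change of 0.54 (standard error 0.249, adjusted p 0.219). The size depends on the pseudocount, and the difference in means was 1.94 with 0.1 in place of 1. Its exons share 839 of 3376 bases with Gm45470 on the opposite strand, which itself reached no more than 0.0233 FPKM. Whether counting used strand is not given in the sources used here.

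Adipocyte markers moved with Adrb3. The 5 markers Adipoq, Plin1, Cidec, Lep and Ucp1 summed to 0.0343 to 0.244 FPKM in the sham-operated mice and to 13.7, 0.0406 and 45.7 FPKM in MI replicates 1 to 3, and 0 of the 5 passed the filter. Adipoq alone, the adipocyte hormone adiponectin, stood at 8.32, 0 and 26.8 FPKM in the MI mice, and Ucp1, of brown fat, at no more than 0.0777 FPKM. Lep, the hormone leptin, was listed at 0 in the sham-operated mice. Adrb3 and the marker sum were both highest in MI replicate 3, next in MI replicate 1 and at the sham level in MI replicate 2. The part of adipocyte RNA in the Adrb3 values was not tested.

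**Figure D2:**
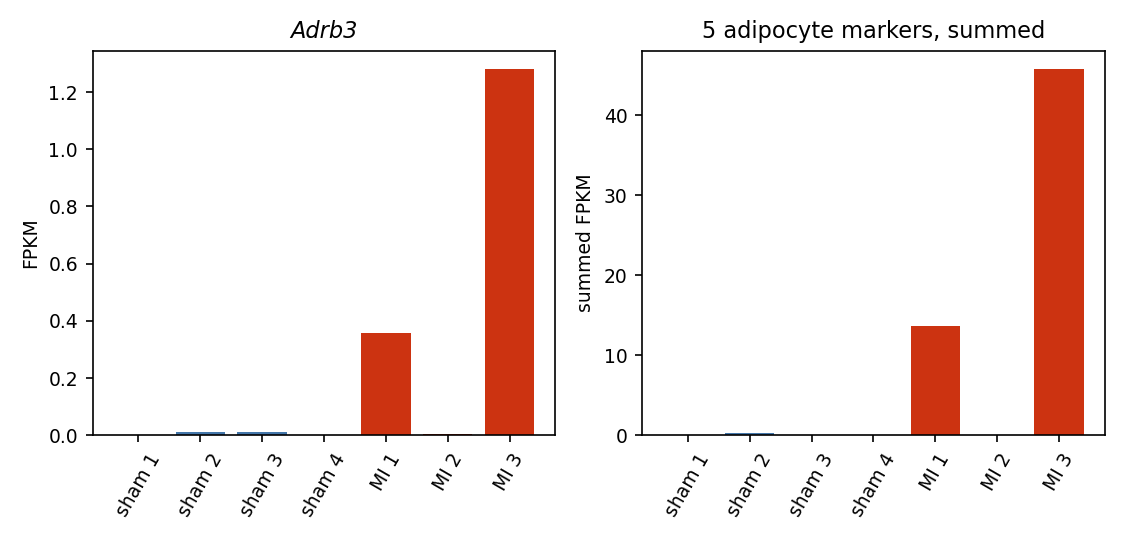
Adrb3 (left, FPKM) and the summed FPKM of 5 adipocyte markers (right) in each of the 7 mice, sham in blue and MI in red, bars starting at 0. In both panels MI 3 is highest (1.28 and 45.7 FPKM), MI 1 comes next (0.358 and 13.7 FPKM), and MI 2 lies with the sham-operated mice.

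Among the alpha1 receptors, Adra1b, the alpha1B receptor (ENSMUSG00000050541, chromosome 11, 43774606 to 43901210, minus strand), was the tested member with the lowest log2 fold change. It stood at 4.39, 5.96, 3.93 and 5.13 FPKM in the sham replicates and at 2.25, 3.84 and 2.25 FPKM in the MI replicates. MI replicate 2 lay just under the lowest sham-operated mouse and the other MI mice far under it. Fragments numbered 458 to 641 in the sham group and 243 to 431 in the MI group. MI differed from sham by -0.64 on the log2 scale (standard error 0.185, limma adjusted p 0.108). With MI replicate 2 left out it was -0.84 with a limma adjusted p of 0.00123, and the limma adjusted p ran from 9.01e-06 to 0.335 over 18 alternatives. Its log2 ratio to the cardiomyocyte markers of the same mouse was -6.58 to -6.04 in sham and -6.74, -6.57 and -6.98 in MI mice, a mean difference of -0.44 (exact two-sided permutation p = 0.114) and of -0.54 without MI replicate 2. There MI replicate 2 was level with the lowest sham-operated mouse and the other MI mice were below all of them. Against the markers' median the groups did not overlap, with a difference of -0.61 (exact two-sided permutation p = 0.0571, unadjusted and the smallest possible). Against the markers' mean that permutation p was 0.229 after adjustment over 12 ratios.

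Adra1d, the alpha1D receptor, known from vascular smooth muscle (ENSMUSG00000027335, chromosome 2, 131545850 to 131562283, minus strand), read 1.71, 2.31, 1.79 and 2.19 FPKM in sham and 1.09, 1.60 and 1.03 FPKM in MI mice. The groups did not overlap. They rested on 73 to 95 fragments in sham and 45 to 69 in MI mice, the lowest numbers of the members that passed the filter. For Adra1d the log2 fold change came to -0.43 (standard error 0.128, limma adjusted p 0.108). It was -0.54 with a limma adjusted p of 0.00240 in the absence of MI replicate 2, and over 18 alternatives the limma adjusted p spanned 9.25e-06 to 0.335. Relative to cardiomyocyte markers the mean difference was -0.32 on the log2 scale (exact two-sided permutation p = 0.114) and -0.36 without MI replicate 2. It was -0.49 against the markers' median, where the groups did not overlap (exact two-sided permutation p = 0.0571, unadjusted and the smallest possible). Against the markers' mean that permutation p was 0.229 after adjustment over 12 ratios. The 6 smooth muscle and pericyte markers summed to 70.0 to 74.9 FPKM in sham and to 53.7, 69.4 and 53.5 FPKM in MI mice. In the sham-operated mice and MI replicate 2 most of that sum was Abcc9, a potassium channel subunit that cardiomyocytes express as well, at 43.0 to 47.3 FPKM in sham and 17.7, 42.6 and 19.0 FPKM in MI mice. The list did not move as one. Of these 6, 5 were tested, with a median log2 fold change of 0.16, and 2 (Abcc9 and Kcnj8) were lower at an unadjusted p under 0.05. Cnn1, the untested one, was above the sham range in each MI mouse, at 6.67, 0.685 and 5.25 against 0.507 to 0.560 FPKM. The part of these cells in the Adra1d values was not tested. Gm14285 on the opposite strand, which shares 147 of 1899 exon bases with Adra1d, was listed at 0 in all mice.

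Adra1a, the alpha1A receptor (ENSMUSG00000045875, chromosome 14, 66635251 to 66771168, plus strand), was the receptor in which MI replicate 2 went the other way. It stood at 1.12, 1.27, 0.831 and 0.985 FPKM in sham and at 0.431, 1.40 and 0.512 FPKM in MI mice. MI replicate 2 was the highest of all 7, and MI replicates 1 and 3 were the lowest. The fit gave Adra1a a log2 fold change of -0.24 (standard error 0.190, limma adjusted p 0.341). Dropping MI replicate 2 gave -0.47 with a limma adjusted p of 0.00522, and over 17 alternatives the limma adjusted p ran from 7.35e-05 to 0.753. The log2 fold change was -0.10 without MI replicate 1 and -0.14 without MI replicate 3. Its log2 ratio to cardiomyocyte markers was -8.82 to -8.28 in sham and -9.12, -8.02 and -9.12 in MI mice, a mean difference of -0.23 (exact two-sided permutation p = 0.514) and of -0.59 without MI replicate 2. Without MI replicate 1 or MI replicate 3 the difference was -0.043 in each case, and -0.14 without sham replicate 2. MI replicates 1 and 3 were below every sham-operated mouse in this ratio and MI replicate 2 above them. The log2 ratio of Adra1a to Adra1b within each mouse compares the changes of the pair. It was -2.38 to -1.97 in sham and -2.38, -1.45 and -2.14 in MI mice, with MI replicate 2 above the sham range (mean difference 0.22, exact two-sided permutation p = 0.571). Dropping that mouse turned the difference to -0.055, and dropping MI replicate 1 made it 0.41.

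Grk5 encodes a kinase that phosphorylates occupied receptors and so prepares them for arrestin (ENSMUSG00000003228, chromosome 19, 60889749 to 61095968, plus strand). It was the tested member with the highest log2 fold change. Sham replicates 1 to 4 read 4.59, 4.41, 3.89 and 3.93 FPKM, and MI replicates 1 to 3 read 11.3, 4.68 and 10.5 FPKM. MI replicates 1 and 3 were far above the sham-operated mice, and MI replicate 2 was barely above the highest of them. Fragments numbered 589 to 772 in the sham group and 794 to 1864 in the MI group. MI differed from sham by 0.84 on the log2 scale (standard error 0.261, limma adjusted p 0.108). With MI replicate 2 left out it was 1.19 with a limma adjusted p of 2.27e-05, and the limma adjusted p ran from 8.27e-08 to 0.335 over 18 alternatives.

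The log2 ratio of Grk5 to cardiomyocyte markers was -6.60 to -6.40 in sham and -4.42, -6.29 and -4.76 in MI mice. The groups did not overlap, with a mean difference of 1.36 (exact two-sided permutation p = 0.0571, and 0.229 after adjustment over 12 ratios). Dropping MI replicate 2 made the difference 1.93. Against the markers' median it was 1.19 with all mice, and there the groups overlapped (exact two-sided permutation p = 0.114). Against Grk2, the other main cardiac receptor kinase, the log2 ratio was -1.27 to -0.48 in sham-operated mice and -0.30, -0.39 and -0.26 in MI mice. Again the groups did not overlap, with a mean difference of 0.67 (exact two-sided permutation p = 0.0571, adjusted 0.229) and of 0.71 without MI replicate 2. MI replicate 2, with 6.12 FPKM of Grk2, and sham replicate 2, with 6.15 FPKM, had the lowest Grk2 of all 7 mice and were the nearest to each other across the groups.

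Fibroblast and leukocyte markers moved with Grk5. The 9 fibroblast markers summed to 139 to 159.7 FPKM in sham and to 2653, 248 and 2057 FPKM in MI replicates 1 to 3, and 9 of them were higher at an unadjusted p under 0.05, against 29.5% of all genes. The 9 macrophage and leukocyte markers summed to 119 to 158 FPKM in sham and to 818, 146 and 711 FPKM in MI mice, and of the 7 tested 7 were higher. At an adjusted p under 0.05 limma called 0 of the genes of either list. The 7 endothelial markers summed to 129 to 147 FPKM in sham and to 162, 121 and 174 FPKM in MI mice, with 1 higher at an unadjusted p under 0.05, a share below that of all genes. Their median log2 fold change was 0.26, near the 0.21 of the median gene, and Kdr, a receptor for vascular endothelial growth factor, was below the sham range in each MI mouse, at 17.7, 16.5 and 16.4 against 18.1 to 21.5 FPKM. Without MI replicate 2, limma called 9 of 9 fibroblast, 7 of 7 leukocyte and 5 of 7 endothelial markers higher at an adjusted p under 0.05. Over all genes 57.0% were called higher in that fit. In all 3 lists MI replicates 1 and 3 had the highest sums. The part of these cells in the Grk5 values was not tested.

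The adenylyl cyclases Adcy5 and Adcy6 are the main cyclases of cardiomyocytes and had the highest levels of the 9 genes. Adcy5 (ENSMUSG00000022840, chromosome 16, 35154877 to 35305738, plus strand) stood at 12.6, 13.3, 14.9 and 13.4 FPKM in sham and at 13.02, 13.4 and 17.1 FPKM in MI mice. MI replicate 3 was the highest of all, and the other MI mice lay within the sham range. For Adcy5 the log2 fold change came to 0.084 (standard error 0.120, limma adjusted p 0.585). It was 0.13 with a limma adjusted p of 0.323 in the absence of MI replicate 2, and over 18 alternatives the limma adjusted p spanned 0.000139 to 0.857. Scaling by the median log-ratio of each mouse turned its sign, to -0.17.

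Adcy6 (ENSMUSG00000022994, chromosome 15, 98589973 to 98610076, minus strand) stood at 16.7, 19.2, 21.1 and 15.9 FPKM in sham and at 13.2, 23.1 and 17.4 FPKM in MI mice. MI mice were both the lowest and the highest of the 7. The fit gave Adcy6 a log2 fold change of -0.051 (standard error 0.191, limma adjusted p 0.841). Dropping MI replicate 2 gave -0.24 with a limma adjusted p of 0.163, and over 18 alternatives the limma adjusted p ran from 0.163 to 0.952. Rescaled to TPM it was 0.14, so no direction is given for either cyclase. Its exons share 605 of 6782 bases with Gm29331 on the opposite strand, which reached 0.835 FPKM.

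Relative to cardiomyocyte markers of the same mouse, both cyclases had higher mean log2 ratios in MI mice. For Adcy5 the ratios were -4.94 to -4.66 in sham and -4.21, -4.77 and -4.06 in MI mice, a mean difference of 0.48 (exact two-sided permutation p = 0.114) and of 0.69 without MI replicate 2. For Adcy6 they were -4.56 to -4.15 in sham and -4.18, -3.98 and -4.04 in MI mice, a mean difference of 0.33 (exact two-sided permutation p = 0.114) and of 0.29 without MI replicate 2. Against the markers' median the differences were 0.31 for Adcy5 and 0.17 for Adcy6. Against the markers' mean 1 MI mouse lay within the sham range in each case, replicate 2 for Adcy5 and replicate 1 for Adcy6. The log2 ratio of Adcy5 to Adcy6 was -0.53 to -0.25 in sham and -0.021, -0.78 and -0.024 in MI mice, a mean difference of 0.15 (exact two-sided permutation p = 0.629). MI replicates 1 and 3 were above the sham range and MI replicate 2 below it. The difference was 0.40 without MI replicate 2, 0.018 without MI replicate 1 and 0.020 without MI replicate 3.

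Pde3a encodes phosphodiesterase 3A, which breaks down cyclic AMP in cardiomyocytes and is a target of milrinone (ENSMUSG00000041741, chromosome 6, 141249269 to 141507448, plus strand). It read 6.66, 7.02, 7.76 and 6.38 FPKM in sham and 4.90, 7.06 and 4.39 FPKM in MI mice. MI replicates 1 and 3 were under the sham range and MI replicate 2 was inside it. MI differed from sham by -0.32 on the log2 scale (standard error 0.152, limma adjusted p 0.148). With MI replicate 2 left out it was -0.49 with a limma adjusted p of 0.00166, and the limma adjusted p ran from 2.75e-06 to 0.413 over 18 alternatives. Without MI replicate 3 the log2 fold change was -0.20. Its exons share 741 of 12737 bases with Gm28523 on the opposite strand, which reached 1.56 FPKM. Relative to cardiomyocyte markers of the same mouse the mean difference was 0.012 on the log2 scale (exact two-sided permutation p = 0.971), -0.030 without MI replicate 2 and -0.16 against the markers' median, so no direction is given for this ratio.

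Pde3b, a phosphodiesterase prominent in adipocytes, missed the filter. It stood at 0.504 to 0.692 FPKM in sham and at 1.91, 0.502 and 1.84 FPKM in the MI replicates. The log2 ratio of Pde3a to Pde3b was 3.34 to 3.66 in sham-operated mice and 1.36, 3.81 and 1.26 in MI mice, low in MI replicates 1 and 3 and highest of all in MI replicate 2 (mean difference -1.35, exact two-sided permutation p = 0.286). Dropping MI replicate 2 made the difference -2.19.

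**Figure D3:**
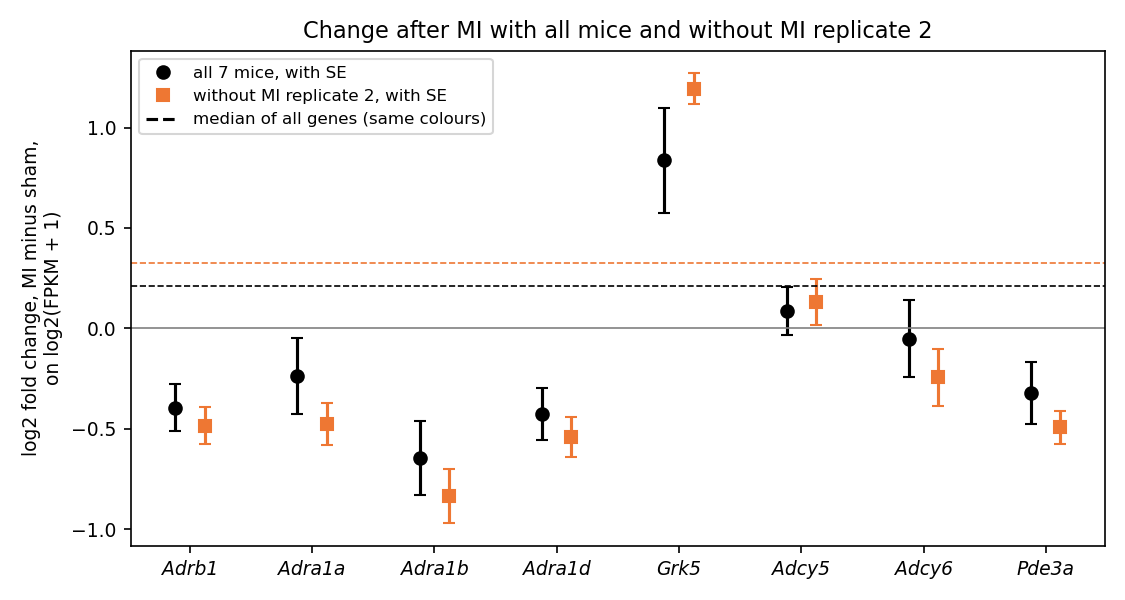
Log2 fold change of MI against sham (vertical axis, on log2(FPKM + 1), with standard error) of the 8 members that passed the filter, with all 7 mice (black) and without MI replicate 2 (orange); dashed lines give the median of all genes, 0.21 and 0.33. Grk5 is the 1 member above the median gene in both fits, at 0.84 and 1.19, and Adra1b lies lowest, at -0.64 and -0.84.

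**Figure D4:**
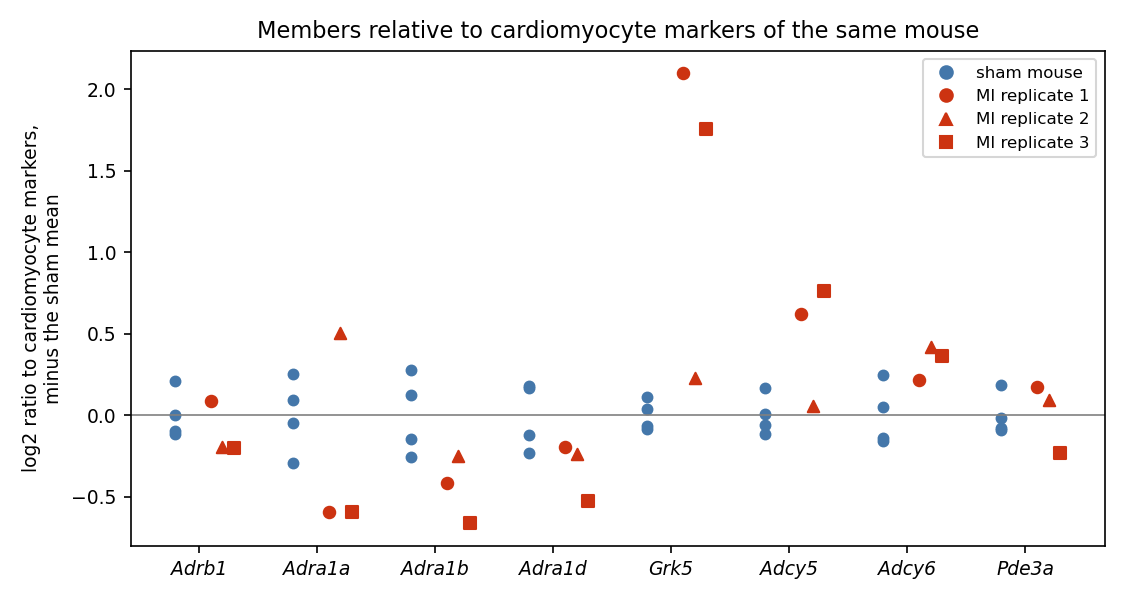
Log2 ratio of each member to 19 cardiomyocyte markers in the same mouse, minus the mean of the sham-operated mice (vertical axis), for sham-operated mice (blue) and MI mice (red, a symbol for each replicate). Grk5 stands above the sham-operated mice in all 3 MI mice, and the groups overlap for the other 7 members.

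In the sham-operated heart the order of mean levels was Adcy6, Adcy5, Pde3a, Adrb1, Adra1b, Grk5, Adra1d, Adra1a and Adrb3, from 18.2 FPKM down to 0.00629 FPKM. The ranges of Adrb1, Adra1b and Grk5, with means of 4.92, 4.85 and 4.21 FPKM, overlapped between neighbours, and those of the other neighbours in the order did not. Divided by GENCODE exon lengths instead, a choice made after the values were seen, Adra1b passed Adrb1 (7.11 against 5.01 FPKM) and Adra1a passed Adra1d (2.14 against 2.00 FPKM). The ranges then overlapped from Pde3a through Adra1b and Adrb1 to Grk5 and between Adra1a and Adra1d. Over the 3 MI mice the mean of Grk5 was 8.82 ± 3.61 FPKM (SD, n = 3) and that of Adra1b 2.78 ± 0.916 FPKM (SD, n = 3). With either length Grk5 was below Adrb1 in each sham-operated mouse and above it in each MI mouse, an exchange seen after the values were known and not tested.

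Around the 9 genes, 82 other genes of the pathway were listed by role, and 59 passed the filter. At an adjusted p under 0.05, limma called 0 of the 59. At an unadjusted p under 0.05, 17 were higher and 14 lower, where the shares over all genes were 29.5% and 9.85%, and their median log2 fold change was 0.071, against 0.21 over all genes. With median log-ratio scaling 10 were higher and 22 lower, and with TPM 17 and 8. Dropping MI replicate 2 brought 26 higher and 20 lower calls past an adjusted p of 0.05, where 57.0% and 14.7% of all genes passed. The counts by role given next stand against the same shares, and with 3 to 13 tested genes a role they are descriptions. In MI replicates 1 and 3 the summed fibroblast and leukocyte markers were highest and the summed cardiomyocyte markers lowest, as given above. The part of these cells in the values of the roles was not tested.

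**Figure D5:**
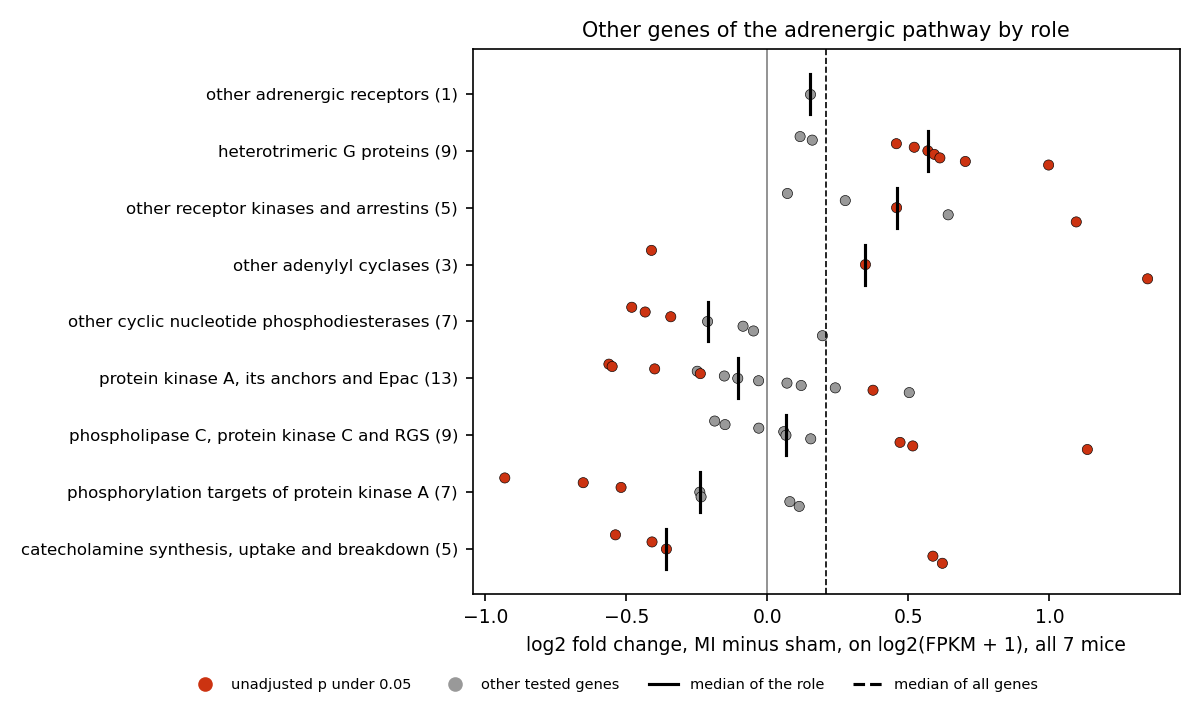
Log2 fold change of MI against sham with all 7 mice (horizontal axis) of the 59 tested pathway genes by role (number tested in brackets), red where the unadjusted p was under 0.05, with the median of each role and, dashed, of all genes. All 9 G protein genes lie above 0 on this scale, with a median of 0.57, though Gnas and Gna11 turn below 0 with quantile or median log-ratio scaling, and the targets of protein kinase A have a median of -0.24.

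The alpha2 receptors Adra2a, Adra2b and Adra2c, which dampen noradrenaline release, missed the filter, and no direction is read from so few fragments. Adra2a stood at 0 in all 4 sham-operated mice and at 0.191, 0.0210 and 0.111 FPKM in MI mice, from 35, 4 and 22 fragments. Adra2c stood at 0.129 to 0.260 FPKM in sham and at 0.0666, 0.0769 and 0.0615 FPKM in MI mice, from 10 to 21 and 5 to 6 fragments, the MI group lying below. The groups overlapped for Adra2b, at 0.185 to 0.257 and at 0.173, 0.206 and 0.202 FPKM.

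Of the 9 G protein genes, 7 were higher and 0 lower at an unadjusted p under 0.05, and dropping MI replicate 2 brought all 9 past an adjusted p of 0.05. Over all genes 29.5% were higher in the first fit and 57.0% were called higher in the second. Gnas, the stimulatory subunit that beta receptors use, stood at 23.7 to 25.8 FPKM in sham and 28.2, 23.8 and 31.6 FPKM in MI mice (log2 fold change 0.16, limma adjusted p 0.298, or 0.26 and 0.0117 without MI replicate 2). The log2 fold change of Gnas ran from -0.11 to 0.36 over the alternatives. Of its 11186 exon bases, 1469 are shared with Gm20721 and 988 with Nespas, both on the opposite strand. Gnai2, an inhibitory subunit, stood at 26.8 to 28.2 FPKM in sham and 52.3, 26.5 and 53.5 FPKM in MI mice (log2 fold change 0.59, limma adjusted p 0.117, or 0.92 and 1.46e-05 without MI replicate 2). Gnao1, a related subunit, had the smallest p of the list, at 0.875 to 1.05 FPKM in sham and 2.47, 1.51 and 2.83 FPKM in MI mice (log2 fold change 0.70, limma adjusted p 0.108, or 0.88 and 7.19e-05 without MI replicate 2). Gnao1 was higher in all 3 MI mice, whereas in MI replicate 2 Gnas was within and Gnai2 just below the sham range.

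Of the 6 other kinases and arrestins, 5 were tested, and 2 were higher and 0 lower at an unadjusted p under 0.05. Grk2, a receptor kinase, stood at 6.15 to 9.41 FPKM in sham and 13.8, 6.12 and 12.6 FPKM in MI mice (log2 fold change 0.28, limma adjusted p 0.437, or 0.61 and 0.0111 without MI replicate 2). Grk6, another kinase of the family, stood at 2.12 to 2.57 FPKM in sham and 4.77, 2.40 and 3.62 FPKM in MI mice (log2 fold change 0.46, limma adjusted p 0.113, or 0.66 and 0.00114 without MI replicate 2). In both, MI replicates 1 and 3 were above the sham range and MI replicate 2 was not. Arrb2, an arrestin, was higher in each MI mouse, at 1.87 to 2.22 FPKM in sham and 8.34, 2.25 and 8.16 FPKM in MI mice (log2 fold change 1.10, limma adjusted p 0.108, or 1.60 and 5.42e-06 without MI replicate 2).

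Among 7 other adenylyl cyclases 3 were tested, 2 of them higher and 1 lower at an unadjusted p under 0.05. Adcy7 had the highest log2 fold change of the tested pathway genes. It stood at 1.67 to 2.17 FPKM in sham and 11.6, 1.59 and 11.5 FPKM in MI mice (log2 fold change 1.35, limma adjusted p 0.115, or 2.11 and 3.86e-06 without MI replicate 2). In MI replicate 2 it lay below the sham range. Adcy4 stood at 3.83 to 4.34 FPKM in sham and 6.33, 4.21 and 6.04 FPKM in MI mice (log2 fold change 0.35, limma adjusted p 0.114, or 0.50 and 0.000359 without MI replicate 2), and Adcy9 at 2.71 to 3.04 FPKM in sham and 1.47, 2.97 and 1.56 FPKM in MI mice (log2 fold change -0.41, limma adjusted p 0.123, or -0.63 and 0.000138 without MI replicate 2). Of 7 tested phosphodiesterases among 12, 3 were lower and 0 higher. Pde4a, which is specific for cyclic AMP, stood at 6.58 to 8.32 FPKM in sham and 4.62, 6.01 and 4.81 FPKM in MI mice (log2 fold change -0.48, limma adjusted p 0.108, or -0.58 and 0.000930 without MI replicate 2), without overlap. Pde2a, which cyclic GMP stimulates, stood at 5.55 to 7.14 FPKM in sham and 6.11, 5.88 and 5.96 FPKM in MI mice (log2 fold change -0.086, limma adjusted p 0.505, or -0.075 and 0.479 without MI replicate 2), inside the sham range. Gm45837 on the same strand shares 3955 of 6149 exon bases with Pde2a, so its level is uncertain.

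Of 13 tested genes for protein kinase A, its anchors and Epac, 1 was higher and 4 lower at an unadjusted p under 0.05. Prkaca, the catalytic subunit, was lower in each MI mouse, at 86.3 to 89.7 FPKM in sham and 58.2, 78.0 and 64.3 FPKM in MI mice (log2 fold change -0.40, limma adjusted p 0.108, or -0.51 and 0.000274 without MI replicate 2). Prkar1a, a regulatory subunit, stood at 95.9 to 111 FPKM in sham and 193, 92.8 and 179.6 FPKM in MI mice (log2 fold change 0.50, limma adjusted p 0.161, or 0.84 and 7.43e-05 without MI replicate 2), with MI replicate 2 below the sham range. Akap1, an anchor at mitochondria, was lower in each MI mouse, at 30.3 to 35.2 FPKM in sham and 19.4, 27.6 and 20.5 FPKM in MI mice (log2 fold change -0.56, limma adjusted p 0.108, or -0.71 and 0.000186 without MI replicate 2).

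Of 7 tested phosphorylation targets of protein kinase A, 3 were lower and 0 higher at an unadjusted p under 0.05, against 9.85% and 29.5% of all genes. Tnni3, cardiac troponin I, stood at 671 to 784 FPKM in sham and 272, 716 and 283 FPKM in MI mice (log2 fold change -0.93, limma adjusted p 0.110, or -1.39 and 1.15e-05 without MI replicate 2). Ryr2, the calcium release channel, stood at 47.7 to 54.7 FPKM in sham and 28.8, 47.9 and 30.8 FPKM in MI mice (log2 fold change -0.52, limma adjusted p 0.109, or -0.74 and 0.000140 without MI replicate 2). In both, MI replicates 1 and 3 were far below the sham range and MI replicate 2 within it. Mybpc3, a myosin-binding protein, stood at 772 to 890.4 FPKM in sham and 836, 871 and 978 FPKM in MI mice (log2 fold change 0.080, limma adjusted p 0.652, or 0.098 and 0.347 without MI replicate 2), and the groups overlapped.

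In the alpha1 branch, 9 genes for phospholipase C, protein kinase C and RGS proteins were tested, and 3 were higher and 0 lower at an unadjusted p under 0.05. Plcb3, a phospholipase C, was higher in each MI mouse, at 2.53 to 2.67 FPKM in sham and 5.70, 2.74 and 4.45 FPKM in MI mice (log2 fold change 0.52, limma adjusted p 0.110, or 0.75 and 0.000284 without MI replicate 2). Rgs5, an RGS protein of pericytes, stood at 131 to 146 FPKM in sham and 131, 137 and 132 FPKM in MI mice (log2 fold change -0.030, limma adjusted p 0.816, or -0.050 and 0.499 without MI replicate 2). Rgs2, which limits Gq signals, stood at 6.32 to 7.21 FPKM in sham and 5.71, 6.50 and 5.61 FPKM in MI mice (log2 fold change -0.19, limma adjusted p 0.160, or -0.24 and 0.0127 without MI replicate 2).

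Of 10 genes for making, taking up and breaking down catecholamines 5 were tested, 2 of them higher and 3 lower at an unadjusted p under 0.05. Maob, the degrading enzyme monoamine oxidase B, stood at 14.0 to 17.0 FPKM in sham and 9.16, 14.3 and 7.62 FPKM in MI mice (log2 fold change -0.54, limma adjusted p 0.110, or -0.77 and 0.000464 without MI replicate 2), with MI replicate 2 within the sham range. Slc22a3, a catecholamine transporter outside nerves, was lower in each MI mouse, at 1.2995 to 1.49 FPKM in sham and 0.596, 1.05 and 0.757 FPKM in MI mice (log2 fold change -0.41, limma adjusted p 0.108, or -0.51 and 0.00100 without MI replicate 2). Th, the enzyme that starts catecholamine synthesis in sympathetic nerves, reached no more than 0.0957 FPKM in any mouse.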

How the data were processed

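The authors deposited FPKM values for 56980 genes, scaled by gene length and library fragments, in 1 column per mouse (0 columns unused). Per the labels, CASAVA 1.8, HISAT2, SAMtools 1.3.1 and edgeR were used with mm10, with no role stated, and the counting program, annotation and strand setting are not given in the sources used here. Identifiers were joined to GENCODE M21 (GRCm38), which held 52073 of them. Fragment numbers were recovered from the steps of the FPKM values, within 0.05 of a whole number, for 30502 of 30504 genes above 0. At these depths the fragments given with a member bound its counting precision, and the SD over mice includes it. Log2(FPKM + 1) was tested with limma 3.58.1, with an intensity trend, under R 4.3.3, and log2 ratios of FPKM within a mouse by exact permutation over 35 splits (SciPy 1.17.1). The limma step was tested on simulated data.

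The members, lists and rules were chosen with earlier results of these data known. Genes named were all members, from each role the 2 tested genes with the highest sham level and the 1 with the smallest p, and the 2 genes most like each tested member. Others named, such as Adra2a, Th and Pde3b, were chosen outside this rule, and some genes under the rule are not reported here. Alternatives changed the pseudocount (0.1), the filter (none, or the mean), the scaling (TPM, quantile, median log-ratio, mitochondrial genes left out), the model (without trend, sample weights, voom on recovered fragments, replicate block), the centre of the cardiomyocyte markers in the ratios (median for mean) and the mice (each left out).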

Additional observations from a re-analysis of the deposited data

Results flagged for a closer look

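In 3 of 52 sets of values over the 4 sham-operated mice, 1 mouse stood apart. The distance from it to its neighbour, as a share of the whole range, was past Dixon's 95% critical value for 4 samples. The share was 0.830 for the FPKM of Grk2, where sham replicate 2 was lowest at 6.15 FPKM, 0.848 for Rgs5, where sham replicate 1 was highest at 146 FPKM, and 0.901 for the score of fibroblast markers, where sham replicate 1 was highest. Chance puts about 1 in 20 such sets past this value, which is 2.6 of 52.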

How the results depend on the processing

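Of the alternatives, 1 was added after seeing the data (the gene length behind the levels), and the cause of the changes given here was not tested. With all mice, limma called 0 members, 0 pathway genes, and 2 genes higher and 1 lower of all at an adjusted p under 0.05. Sample weights, under which MI replicate 3 outweighed the other MI mice (436.7 against 0.0906 and 0.0217), called 2 members higher and 5 lower, 32 and 23 pathway genes and 7636 and 2316 of all genes, with 2 members higher and 5 lower also by the unadjusted p. Of all genes, 5 were higher with a pseudocount of 0.1, 20 without a filter, 0 (0 lower) with the filter on the mean, 10 (5 lower) with quantile and 10 (5 lower) with median log-ratio scaling, 8 (3 lower) without mitochondrial genes and 1 with voom. With TPM 0 were lower. The difference of Adrb3 went from 0.54 to 1.94 with a pseudocount of 0.1.

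The replicate block gave 0 higher and 0 lower of all genes and changed no member's or pathway gene's call at an adjusted p. At an unadjusted p under 0.05 it left 2 members lower, Adrb1 missing the threshold, and 1 higher. The numbers were not shown to pair the mice: deviations of same-numbered mice had r = 0.074, -0.016 and -0.080.

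Leaving out each mouse gave 0 to 1 members higher and 0 to 5 lower, 0 to 26 and 0 to 20 pathway genes, and 0 to 6512 and 0 to 1683 of all genes, and by the unadjusted p 0 to 1 members higher and 3 to 5 lower. The highest counts came without MI replicate 2, and Grk5 missed the unadjusted threshold without MI replicate 1 or 3. Adcy5 changed sign with quantile (-0.17) and median log-ratio scaling (-0.17), without mitochondrial genes (-0.049) and without MI replicate 3, ranging from -0.031 to 0.15 as mice were left out. Adcy6 did so with TPM (0.14), without sham replicate 3 and without MI replicate 1, ranging from -0.24 to 0.14. The other 6 tested members kept their direction wherever they were tested, though Adra1a ranged from -0.47 to -0.10 as mice were left out. The log2 ratio of Pde3a to cardiomyocyte markers ranged from -0.069 to 0.13 as mice were left out and was -0.16 against the markers' median, which also ended the separation of Grk5 (1.19) and moved the ratio of Adrb1 to -0.27, and that of Adra1a to Adra1b ranged from -0.055 (without MI replicate 2) to 0.41.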

Other observations

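RNA levels of an inhibitory and a stimulatory G protein subunit were compared as a quotient of FPKM within a mouse, chosen after its values were seen and not tested. Its size depends on the gene lengths behind the FPKM, so it is compared between mice and does not rank the genes. The level of the inhibitory subunit Gnai2 was 1.06 to 1.17 times that of the stimulatory subunit Gnas in the sham-operated mice and 1.86, 1.11 and 1.69 times in the MI replicates.

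Likeness of pattern was measured as Pearson's r of log2(FPKM + 1) over the 7 mice, which share 2 MI mice far from the rest. The 2 tested genes most like each member were Clybl (0.992) and Phyhip (0.988) for Adrb1, Yjefn3 (0.972) and Gm13131 (0.971) for Adra1a, Cdc34 (0.988) and Adra1d (0.987) for Adra1b, Med16 (0.990) and Adra1b (0.987) for Adra1d, Gm14648 (0.999) and Cyba (0.999) for Grk5, Mir6989 (0.981) and Phldb1 (0.939) for Adcy5, Zfyve21 (0.968) and Klhl24 (0.957) for Adcy6, Atp5s (0.985) and Ints10 (0.984) for Pde3a. The pair Adra1b and Adra1d named each other.

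Of 5 markers of the atria, Nppa, a natriuretic peptide that stressed ventricles also make, stood at 69.7 to 185 FPKM in the sham-operated mice and at 7940, 160.1 and 8125 FPKM in MI replicates 1 to 3. Myl7, Myl4, Sln and Bmp10 were under 1 FPKM in all 7 mice. Of these, Myl4 was above the sham range in each MI mouse, at 0.833, 0.333 and 0.967 against 0.189 to 0.282 FPKM. Of 6 markers of sympathetic nerves and Schwann cells 0 passed the filter, and they summed to 1.154 to 1.61 FPKM in the sham-operated mice and to 2.08, 1.44 and 2.52 FPKM in the MI mice.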
